A study of Homo sapiens with 40 samples.

Results

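The genes described here are 10 feedback and output genes of the RAS, RAF, MEK and ERK pathway, the mitogen-activated protein kinase (MAPK) cascade, measured in RKO cells. They were taken by name from the 19962 genes of the count table: the phosphatases DUSP4, DUSP5 and DUSP6, the inhibitors SPRY2, SPRY4, SPRED1 and SPRED2, the transcription factors ETV4 and ETV5, and PHLDA1. Each symbol matched 1 row, and all 10 rows were among the 11428 genes with enough counts to be tested. RKO, an established line from a human colorectal carcinoma, carries an activating BRAF mutation. The series depleted IGF2BP2 and IGF2BP3, RNA-binding proteins that bind many messenger RNAs, and concerns IGF2BP3 in the response to unfolded protein.

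All cells carried a doxycycline-inducible Cas9 and GFP, and each line also expressed a pair of guide RNAs with a blue fluorescent protein, by which transduced cells were sorted. The sgAAVS1 line has guides against AAVS1, a non-coding locus, and was grown with DMSO or with doxycycline (Dox, 250 ng/mL for 72 h). The sgIGF2BP2 and sgIGF2BP3 lines have guides against their namesakes and were grown with DMSO, with Dox, with a non-targeting small interfering RNA (siControl), or with a pool of siRNAs to their own target, siIGF2BP2 or siIGF2BP3, all transfected at 75 nM for 48 h. This makes 10 groups of 4 libraries. Every culture received 4-thiouridine (250 µM for 2 h), the label used in SLAMseq, and the counts analysed are of all polyadenylated RNA, new and old together. Each library came from 1 well of a culture plate. Nothing in the labels says that the 4 wells of a group were grown on separate occasions, so p-values measure the spread between wells, which may be technical. The siRNA against IGF2BP2 was used in the sgIGF2BP2 line alone and that against IGF2BP3 in the sgIGF2BP3 line alone, so a difference between the siRNAs and a difference between those lines cannot be told apart.

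ERK, once phosphorylated, drives transcription of genes whose products restrain the same pathway. The dual-specificity phosphatases remove phosphate from ERK, in the cytoplasm (DUSP6) or in the nucleus (DUSP4 and DUSP5), while Sprouty and SPRED proteins act further up, on RAS and RAF. ETV4 and ETV5 are ETS-family factors that carry part of the transcriptional output, and PHLDA1 is a pleckstrin-homology-like protein whose mRNA follows ERK activity in many cell types. In tumours with an activating BRAF mutation the cascade runs without receptor input, and the mRNAs of these genes serve as a read-out of its activity.

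The guides of the 3 lines are shown because each comparison with Dox rests on what they cut, and all are printed 5′ to 3′. Each IGF2BP2 and IGF2BP3 guide matched an exon sequence of its own target with 0 mismatches. Set against the transcripts of the 10 feedback genes, at positions followed by an NGG motif, the closest match of any guide had 7 mismatches. The AAVS1 guides were not placed on a genome here.
IGF2BP2 guide a: atatgtgacgttgacaacgg
IGF2BP2 guide b: gtgcgctgaggttcaaccct
IGF2BP3 guide a: tggcaccgactgatagagct
IGF2BP3 guide b: gaagatactttctaggtccg
AAVS1 guide a: cgctgtgccccgatgcacac
AAVS1 guide b: ggcgcgtcgctcgctcgctc

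The libraries held between 10018181 and 24822807 counts, with a median of 13468792, and the common biological coefficient of variation was 3.79%. The targeted genes followed the labels: IGF2BP2 mRNA changed by -1.34 ± 0.051 (log2 fold change ± SE) with Dox in the sgIGF2BP2 line and by -1.84 ± 0.050 with siIGF2BP2, and IGF2BP3 mRNA by -1.68 ± 0.045 and -2.78 ± 0.051 in its own line (edgeR adjusted p at most 6.4e-33). IGF2BP3 mRNA also fell with Dox in the sgIGF2BP2 line (-0.25 ± 0.040, edgeR adjusted p = 2.9e-06). Replicate 2 of the sgIGF2BP2 Dox group stood apart from its 3 partners, with a chi-square per gene of 11.8 to 16.6 against at most 6.42 for any pair without it. That 6.42 belongs to replicate 3 of the siIGF2BP2 group, which had 5.64 to 6.42 with its partners where these had 1.49 to 1.83 among themselves. Of 10 epithelial or colon markers, EPCAM, KRT8, KRT18 and CDX2 had counts in all 40 libraries, the defining colon genes KRT20 and CDX1 had none, and CDH1, KRT19, VIL1 and CEACAM5 had a median of 0. The summed level of the 10 was lowest with siIGF2BP2, at 211 to 242 CPM (counts relative to library size, here not scaled) against 245 to 248 CPM with siControl in that line. KRT18, at 117 to 220 CPM over the 40 libraries, made up the largest part of this sum. Of the 4 markers with enough counts to be tested, 1 rose and 1 fell with siIGF2BP2 (edgeR adjusted p under 0.05), where 36.8% of all genes passed. Their median log2 fold change was 0.01. Summed markers of fibroblasts, endothelium and leukocytes reached at most 1.10, 0.452 and 0.502 CPM.

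**Figure D1:**
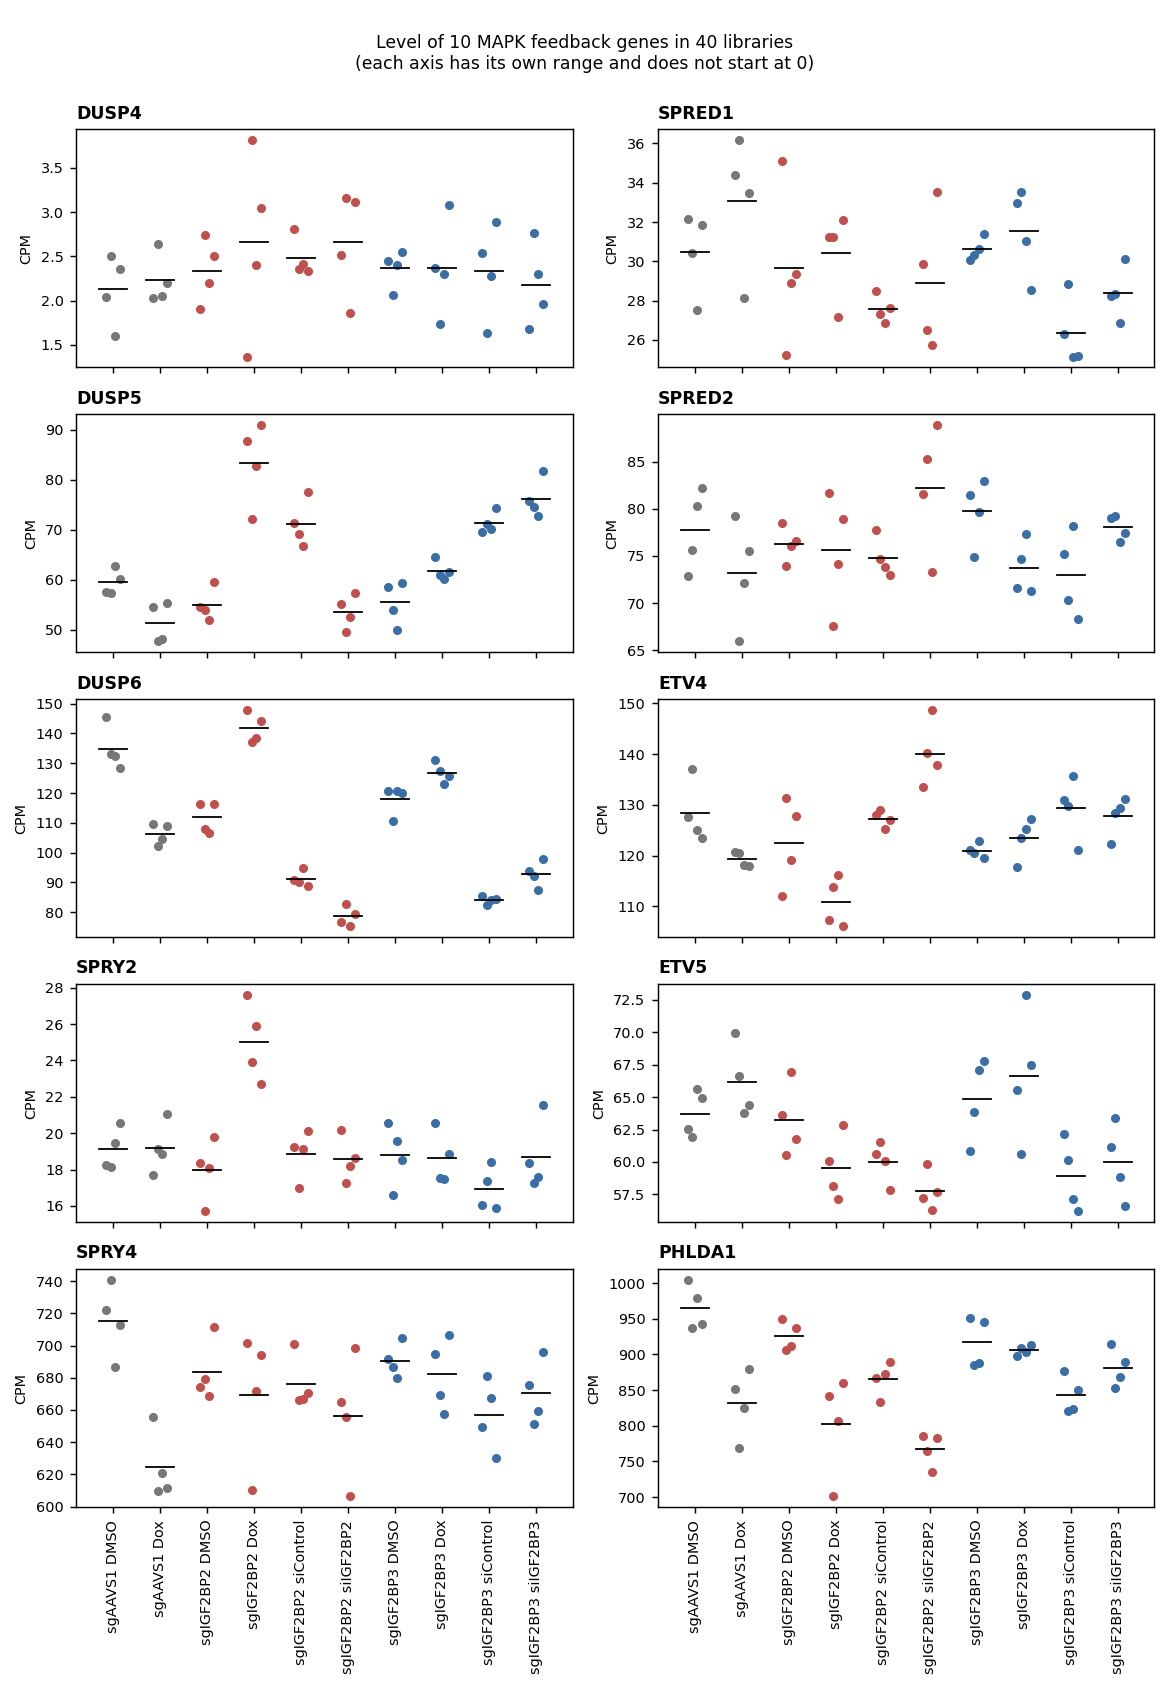
Level of each gene (y axis, CPM, own range per panel, not starting at 0) in the 10 groups (x axis), with 1 point per library and a bar at the group mean. DUSP6 spans 78.6 to 142 CPM between its lowest and highest group mean, whereas DUSP4 stays between 2.13 and 2.66 CPM.

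Library sizes behind CPM values, other than those of the cell type markers, were scaled by the trimmed mean of M-values. Per kilobase of annotated exon, PHLDA1 (108 CPM per kb) and SPRY4 (102 CPM per kb) had the highest levels over all groups. ETV4 followed at 34.7, DUSP5 at 24.4, DUSP6 at 23.5, SPRED2 at 14.8 and ETV5 at 10.7 CPM per kb. SPRY2 was at 6.31 and SPRED1 at 3.60 CPM per kb. DUSP4 was barely expressed, at 0.327 CPM per kb, which is 18 to 69 counts in a library. The genes also differed in how much of their variation lay between groups. Of the variance of log2 CPM over the 40 libraries, 97.1% was between groups for DUSP6 and 89.1% for DUSP5. The share was 76.7% for PHLDA1, 73.8% for ETV4, 66.1% for SPRY2, 61.0% for ETV5 and 52.3% for SPRY4. It was 43.2% for SPRED1, 36.3% for SPRED2 and 9.93% for DUSP4. Means of 4 libraries differ by spread alone, so part of each share would arise without any group effect.

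In each comparison a gene passed the test when its adjusted p from edgeR's quasi-likelihood test, adjusted over all 11428 genes, was under 0.05. With Dox in the sgAAVS1 line 4 of the 10 genes passed, all lower (DUSP5, DUSP6, SPRY4 and PHLDA1), where 15.9% of all genes passed (7.25% higher and 8.68% lower). With Dox in the sgIGF2BP2 line 5 passed, against 20.4% of all genes (10.0% higher and 10.4% lower): DUSP5, DUSP6 and SPRY2 rose, and ETV4 and PHLDA1 fell. With Dox in the sgIGF2BP3 line edgeR called 0 of the 10, against 2.64% of all genes, and DESeq2 also called 0, while 3 had an unadjusted p under 0.05. With siIGF2BP2 against siControl 5 passed, against 36.8% of all genes (18.4% higher and 18.4% lower): DUSP5, DUSP6 and PHLDA1 fell, and SPRED2 and ETV4 rose. Replicate 3 of siIGF2BP2 had the highest ETV4 and the lowest DUSP6, PHLDA1 and SPRED2 of its group, and without it the same 5 passed. With siIGF2BP3 against siControl only DUSP6 passed, higher, against 2.34% of all genes (0.936% higher and 1.4% lower). The median log2 fold change of the 10 genes was -0.09, 0.02, 0.02, -0.03 and 0.08 in these 5 comparisons, beside medians of 0.01 or less over all genes. Between sgIGF2BP3 and sgIGF2BP2 without induction or depletion, edgeR and DESeq2 called 0 of the 10 genes, both with DMSO and with siControl (0.0175% of all genes in each), while 1 had an unadjusted p under 0.05 in each.

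**Figure D2:**
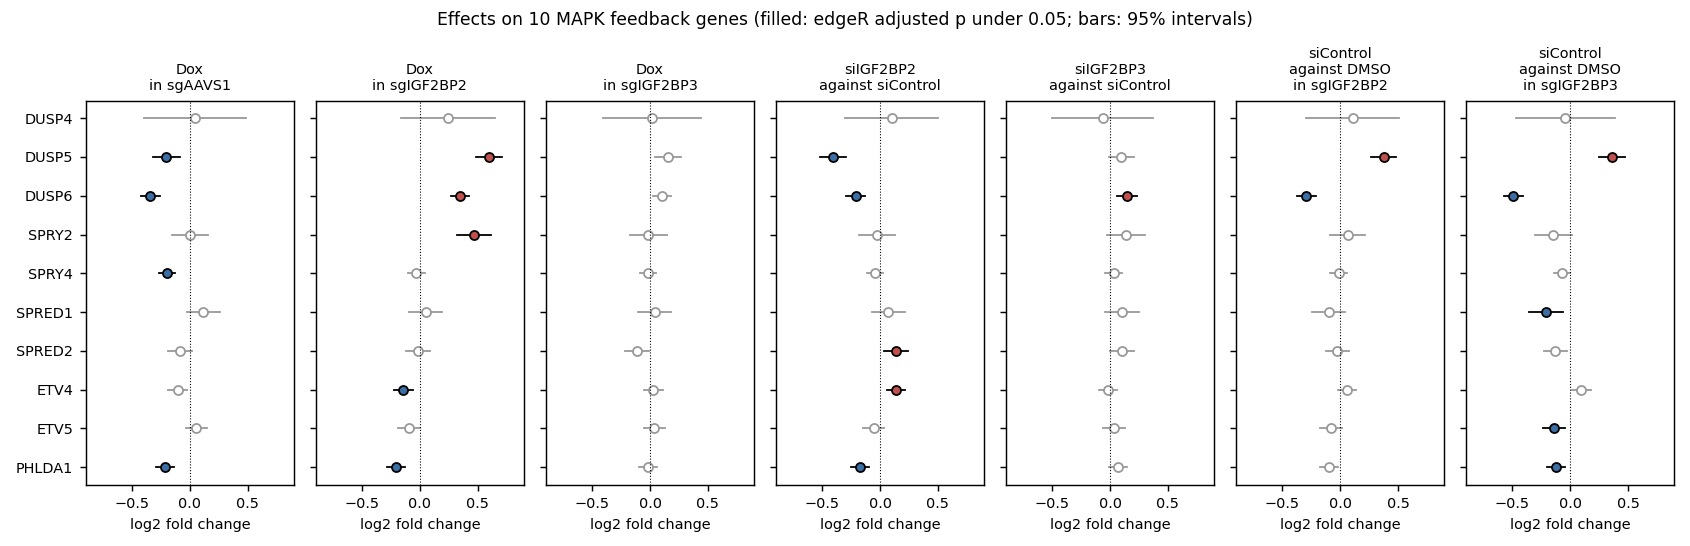
Log2 fold change (x axis) of each gene (y axis) in 7 comparisons, 1 per panel. Points are estimates, bars are 95% intervals, and filled points passed the test. DUSP5 lies at 0.60 with Dox in the sgIGF2BP2 line and at -0.40 with siIGF2BP2.

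DUSP6, the cytoplasmic ERK phosphatase (chr12:89347232-89353271 in GRCh38), passed in 12 of the 15 contrasts fitted, more than any other of the 10. In the 4 sgAAVS1 libraries with DMSO its level was 146, 133, 132 and 129 CPM, and with Dox 109.6, 102, 105 and 109 CPM. In the sgIGF2BP2 line it was 116, 108, 107 and 116 CPM with DMSO and 148, 137, 139 and 144 CPM with Dox. In the sgIGF2BP3 line it was 121, 111, 121 and 120.1 CPM with DMSO and 131, 127, 123 and 126 CPM with Dox. Dox thus lowered DUSP6 in the control line without overlap of the libraries, and raised it without overlap in the sgIGF2BP2 line. The fall in sgAAVS1 was by 21.0% (log2 fold change -0.34 ± 0.041, edgeR adjusted p = 1.6e-09) and the rise in sgIGF2BP2 by 27.2% (0.35 ± 0.040, edgeR adjusted p = 3.0e-10). In sgIGF2BP3 the libraries also did not overlap, but the log2 fold change of 0.10 ± 0.040 did not pass (edgeR adjusted p = 0.15). Such bulk values cannot tell less RNA per cell from fewer cells that hold it.

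The Dox effects on DUSP6 differed between the lines when the difference itself was tested. The effect in sgIGF2BP2 exceeded that in sgAAVS1 by 0.69 ± 0.057 on the log2 scale (edgeR adjusted p = 8.9e-15), the third smallest p of all genes, and the effect in sgIGF2BP3 exceeded it by 0.44 ± 0.057 (edgeR adjusted p = 1.5e-07). In the first contrast 4 of the 10 genes passed, all higher, against 6.97% of all genes (4.01% higher and 2.97% lower), and in the second also 4, all higher, against 7.78% (4.53% and 3.25%). Between sgIGF2BP3 and sgIGF2BP2 the Dox effects differed by -0.24 ± 0.057 (edgeR adjusted p = 0.0064), where 4 of the 10 genes passed, 1 higher and 3 lower, against 2.91% of all genes (1.69% and 1.23%). The 3 differences share libraries with each other and with the single effects, so they are not separate evidence. Both differences from sgAAVS1 use its DMSO libraries, whose means were the highest of the 3 lines for each gene that passed. They were 59.5 CPM for DUSP5 (55.0 in sgIGF2BP2 and 55.5 in sgIGF2BP3) and 135 for DUSP6 (112 and 118). For SPRY4 they were 716 (683 and 691), for PHLDA1 966 (926 and 917) and for SPRY2 19.1 (18.0 and 18.8). Of the 10 genes only DUSP6 passed between lines with DMSO, and the part of these levels in the differences was not tested.

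DUSP6 also differed between the lines before induction. With DMSO alone DUSP6 averaged 135 ± 7.39 CPM (SD, n = 4) in sgAAVS1, 118 ± 4.90 CPM in sgIGF2BP3 and 112 ± 5.23 CPM in sgIGF2BP2. It was lower in sgIGF2BP2 than in sgAAVS1 by 17.2% (log2 fold change -0.27 ± 0.040, edgeR adjusted p = 3.6e-05), with no overlap of the libraries. DUSP6 had the smallest p of all 11428 genes in that comparison, in which only 0.0175% of genes (DUSP6 and KRT79) passed. Against sgIGF2BP3 the difference was -0.19 ± 0.040 (edgeR adjusted p = 0.045), again 1 of 2 genes that passed (0.0175%), the other being MSN, but the call was lost in 8 of 15 alternatives. The level in sgAAVS1 with Dox (102 to 109.6 CPM) overlapped that in sgIGF2BP2 with DMSO (107 to 116 CPM). The lines differ in their guides and in their transduction and sorting, which cannot be told apart.

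DUSP6 was lower with siControl than with DMSO in both lines that were transfected. With siControl the level was 90.7, 90.0, 94.7 and 88.7 CPM in the sgIGF2BP2 line and 85.3, 82.3, 84.0 and 84.4 CPM in the sgIGF2BP3 line, every library below every DMSO library of its line. These were falls by 18.4% (log2 fold change -0.29 ± 0.041, edgeR adjusted p = 7.5e-08) and 28.9% (-0.49 ± 0.042, edgeR adjusted p = 3.2e-15). In the sgIGF2BP2 line 2 of the 10 genes passed, against 18.4% of all genes (10.2% higher and 8.16% lower), and in the sgIGF2BP3 line 5, against 19.4% (10.9% and 8.54%). The siControl and DMSO groups differ in the transfection, in the siRNA and in DMSO, which cannot be told apart.

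Against siControl, DUSP6 was lower with siIGF2BP2 and, by a call that few alternatives kept, higher with siIGF2BP3. With siIGF2BP2 it was 76.8, 82.8, 75.2 and 79.5 CPM, below all 4 siControl libraries (log2 fold change -0.21 ± 0.043, edgeR adjusted p = 5.1e-05). With siIGF2BP3 it was 93.8, 92.0, 87.6 and 97.8 CPM, above all 4 siControl libraries of that line (0.15 ± 0.043, edgeR adjusted p = 0.049), a call that was lost in 9 of 15 alternatives. The 2 siRNA effects differed by 0.36 ± 0.061 (edgeR adjusted p = 5.7e-06), where 4 of the 10 genes passed, 3 higher and 1 lower, against 18.7% of all genes (9.88% and 8.82%). Ordered by mean, DUSP6 ran from siIGF2BP2 (78.6 ± 3.32 CPM) over sgIGF2BP3 siControl, sgIGF2BP2 siControl, siIGF2BP3, sgAAVS1 Dox, sgIGF2BP2 DMSO, sgIGF2BP3 DMSO, sgIGF2BP3 Dox and sgAAVS1 DMSO to sgIGF2BP2 Dox (142 ± 4.99 CPM), 1.81-fold in all. Neighbours in this order overlapped except at 3 steps, below sgIGF2BP2 siControl, below sgAAVS1 Dox and below sgIGF2BP3 Dox.

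DUSP5, a nuclear ERK phosphatase (chr10:110497838-110511544), showed the greatest response to Dox in the sgIGF2BP2 line among the 10 genes. Its level there was 54.6, 53.9, 52.0 and 59.5 CPM with DMSO and 87.8, 72.1, 82.7 and 90.9 CPM with Dox, a rise by 51.4% (log2 fold change 0.60 ± 0.056, edgeR adjusted p = 3.0e-13). In the sgAAVS1 line it was 57.5, 57.4, 62.8 and 60.2 CPM with DMSO and 54.5, 47.7, 48.2 and 55.4 CPM with Dox, a fall by 13.2% (-0.20 ± 0.059, edgeR adjusted p = 0.011) that no longer passed without sgAAVS1 Dox replicate 2 or with a 1.2-fold minimum. Neither pair of groups overlapped. In sgIGF2BP3 it was 58.6, 53.9, 50.0 and 59.4 CPM with DMSO and 64.6, 61.0, 60.2 and 61.6 CPM with Dox, again without overlap, but 0.15 ± 0.058 did not pass (edgeR adjusted p = 0.14). The Dox effect in sgIGF2BP2 exceeded that in sgAAVS1 by 0.80 ± 0.082 (edgeR adjusted p = 2.6e-11) and that in sgIGF2BP3 exceeded that in sgAAVS1 by 0.36 ± 0.083 (edgeR adjusted p = 0.0036). The effect in sgIGF2BP3 minus that in sgIGF2BP2 was -0.44 ± 0.081 (edgeR adjusted p = 2.3e-04).

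Unlike DUSP6, DUSP5 rose with siControl. It was 71.3, 69.1, 66.8 and 77.5 CPM in sgIGF2BP2 and 69.5, 71.1, 70.1 and 74.4 CPM in sgIGF2BP3, with log2 fold changes over DMSO of 0.37 ± 0.056 (edgeR adjusted p = 5.3e-07) and 0.36 ± 0.057 (edgeR adjusted p = 1.4e-06). With siIGF2BP2 it was 55.2, 49.6, 52.5 and 57.3 CPM, which overlaps the DMSO libraries of that line and lies below all siControl libraries (-0.40 ± 0.057, edgeR adjusted p = 2.8e-08). With siIGF2BP3 it was 75.7, 74.5, 72.8 and 81.7 CPM, and 0.095 ± 0.056 did not pass (edgeR adjusted p = 0.47). The siRNA effects differed by 0.50 ± 0.080 (edgeR adjusted p = 1.7e-06). In the order of group means the step without overlap lay between sgIGF2BP3 Dox (61.8 ± 1.96 CPM) and sgIGF2BP2 siControl (71.2 ± 4.58 CPM), so the 4 highest groups were the 3 other than siIGF2BP2 that received an siRNA, together with sgIGF2BP2 Dox.

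DUSP4, the other nuclear ERK phosphatase of the set, on chromosome 8, passed in 0 of the 15 contrasts with edgeR, and in 0 with DESeq2, and its unadjusted p was under 0.05 in 0 of them. Its group means lay between 2.13 and 2.66 CPM, and all neighbours in the order overlapped. With Dox in sgIGF2BP2 the 95% interval of its log2 fold change was -0.16 to 0.65 and in sgAAVS1 -0.39 to 0.49, so that changes of the size seen for DUSP6 were not detectable at this depth.

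SPRY2, a Sprouty inhibitor of receptor signalling to RAS (chr13:80335976-80340951), was higher in 1 group than in all others. With Dox in the sgIGF2BP2 line its level was 27.6, 23.9, 25.9 and 22.7 CPM, above every one of the other 36 libraries, none of which exceeded 21.6 CPM. With DMSO in that line it was 18.4, 15.7, 18.1 and 19.8 CPM, so that Dox raised it by 38.2% (log2 fold change 0.47 ± 0.077, edgeR adjusted p = 3.2e-06). In sgAAVS1 it was 18.3, 18.1, 19.4 and 20.6 CPM with DMSO and 17.7, 19.1, 18.9 and 21.1 CPM with Dox, with a 95% interval of the log2 fold change of -0.16 to 0.16. The interval in sgIGF2BP3 was -0.17 to 0.14. The Dox effect in sgIGF2BP2 exceeded that in sgAAVS1 by 0.47 ± 0.11 (edgeR adjusted p = 0.0044), and the effect in sgIGF2BP3 minus that in sgIGF2BP2 was -0.48 ± 0.11 (edgeR adjusted p = 0.0061). No siRNA contrast moved it past the test, and siIGF2BP2 gave -0.024 ± 0.080 (edgeR adjusted p = 0.84).

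The stretch upstream of SPRY2 is printed here, with letters marked of the kind that ETS factors, ETV4 and ETV5 among them, bind. It is the 250 bases before the outermost RefSeq start of SPRY2 (GRCh38.p14, chr13:80341127-80341376, minus strand), and the capitals mark its 1 match to the ETS core CCGGAA, searched on both strands.
SPRY2 upstream: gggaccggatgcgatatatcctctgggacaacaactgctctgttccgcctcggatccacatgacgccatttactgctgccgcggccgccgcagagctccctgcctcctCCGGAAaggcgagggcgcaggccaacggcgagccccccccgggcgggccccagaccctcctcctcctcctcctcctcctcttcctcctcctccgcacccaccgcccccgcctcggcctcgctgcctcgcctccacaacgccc
These letters were in 14.5% of 35116 such windows of all genes and in 2 of the 9 windows found for 6 of the 10 genes, the other being that of PHLDA1. The PHLDA1 window lay wholly within annotated exons of that gene, and the other windows of SPRY2 held no such match. A match is a run of letters and not a shown binding site. The AP-1 letters TGANTCA (6.57% of all windows), the CRE letters TGACGTCA (1.65%) and the E-box CACGTG (6.34%) were in none of the 9 windows.

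SPRY4, a Sprouty relative (chr5:142310427-142326455) and the second most abundant of the 10 per kilobase, fell with Dox in the control line. In sgAAVS1 it was 722, 741, 687 and 713 CPM with DMSO and 656, 609.9, 621 and 612 CPM with Dox, without overlap (log2 fold change -0.20 ± 0.036, edgeR adjusted p = 5.3e-05). In sgIGF2BP2 it was 674, 679, 669 and 712 and 702, 610.1, 672 and 694 CPM, and in sgIGF2BP3 692, 686, 679.6 and 705 and 695, 669, 657 and 707 CPM. Both pairs overlapped, with 95% intervals of -0.10 to 0.041 and -0.089 to 0.054. The difference from sgAAVS1 was 0.17 ± 0.052 for sgIGF2BP2 (edgeR adjusted p = 0.037) and 0.18 ± 0.052 for sgIGF2BP3 (edgeR adjusted p = 0.021). Those calls were lost in 12 and 4 of 23 alternatives. The 4 siRNA and siControl comparisons of SPRY4 missed the threshold, with log2 fold changes from -0.072 to 0.029, and so did the difference of the siRNA effects (0.072 ± 0.052, edgeR adjusted p = 0.37).

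SPRED1 and SPRED2, relatives of Sprouty that recruit the RAS inhibitor NF1, each passed in 1 of the 15 contrasts. SPRED1 (chr15:38252326-38357249) was 30.6 ± 0.578 CPM (SD, n = 4) with DMSO and 26.4 ± 1.72 CPM with siControl in the sgIGF2BP3 line (log2 fold change -0.21 ± 0.075, edgeR adjusted p = 0.039), a call lost in 8 of 15 alternatives. SPRED2 (chr2:65310851-65432637) was 77.7, 74.7, 73.8 and 72.9 CPM with siControl and 81.6, 85.3, 73.3 and 88.9 CPM with siIGF2BP2, which overlap (0.14 ± 0.051, edgeR adjusted p = 0.029). That call was lost in 6 of 15 alternatives.

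The transcription factor ETV4 (chr17:43527844-43579620) changed in directions opposite to DUSP6 in the sgIGF2BP2 line. With Dox it went from 112, 131, 119 and 128 to 107, 114, 116 and 106 CPM, which overlap at their edges (log2 fold change -0.14 ± 0.041, edgeR adjusted p = 0.0072), and the call was lost without sgIGF2BP2 DMSO replicate 2 (edgeR adjusted p = 0.053). With siIGF2BP2 it went from 128, 129, 125 and 127 to 134, 140.3, 149 and 138 CPM, without overlap (0.14 ± 0.040, edgeR adjusted p = 0.0045). That rise was 0.07 and no longer passed once the GC content and length of transcripts were fitted. The effect of siIGF2BP3 minus that of siIGF2BP2 was -0.16 ± 0.057 (edgeR adjusted p = 0.045), a call lost in 16 of 23 alternatives. In sgAAVS1 the libraries with Dox (121, 121, 118 and 118 CPM) all lay below those with DMSO (128, 137, 125 and 124 CPM), but -0.11 ± 0.041 did not pass (edgeR adjusted p = 0.068). The difference between the Dox effects of sgIGF2BP2 and sgAAVS1 on ETV4 did not pass either, and it passed in 0 of 23 alternatives. ETV4 shares annotated exon bases with DHX8 on the opposite strand, and reads there cannot be told apart unless strand was used in counting, which is not given in the sources used here.

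ETV5, its close relative, passed only with siControl against DMSO in sgIGF2BP3 (-0.14 ± 0.048, edgeR adjusted p = 0.032), a call lost in 5 of 15 alternatives. It lies beside the gene that was cut: ETV5 (chr3:186046308-186110318) starts 0.285 Mb from the start of IGF2BP2. With Dox in the sgIGF2BP2 line it was 60.0, 58.1, 57.2 and 62.8 CPM, against 63.6, 60.6, 66.9 and 61.7 CPM with DMSO (-0.092 ± 0.048, edgeR adjusted p = 0.18). Of the genes around it, TRA2B, a splicing factor that starts 0.113 Mb from IGF2BP2 on the same side, fell (-0.22 ± 0.035, edgeR adjusted p = 1.3e-06), as did DGKG, a diacylglycerol kinase at 0.537 Mb that shares exon bases with ETV5 (-0.20 ± 0.065, edgeR adjusted p = 0.019). With siIGF2BP2 TRA2B gave -0.011 ± 0.035 (edgeR adjusted p = 0.83). DGKG also fell with siControl against DMSO in that line (-0.25 ± 0.064, edgeR adjusted p = 0.0030). Of the 46 tested genes that start within 5 Mb, ETV5 included, 2 rose and 4 fell with Dox, with a median of -0.02, where 20.4% of all genes passed. With siIGF2BP2 4 rose and 11 fell, with a median of -0.06, where 36.8% of all genes passed. The part of the cut in these neighbours' values was not tested.

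**Figure D3:**
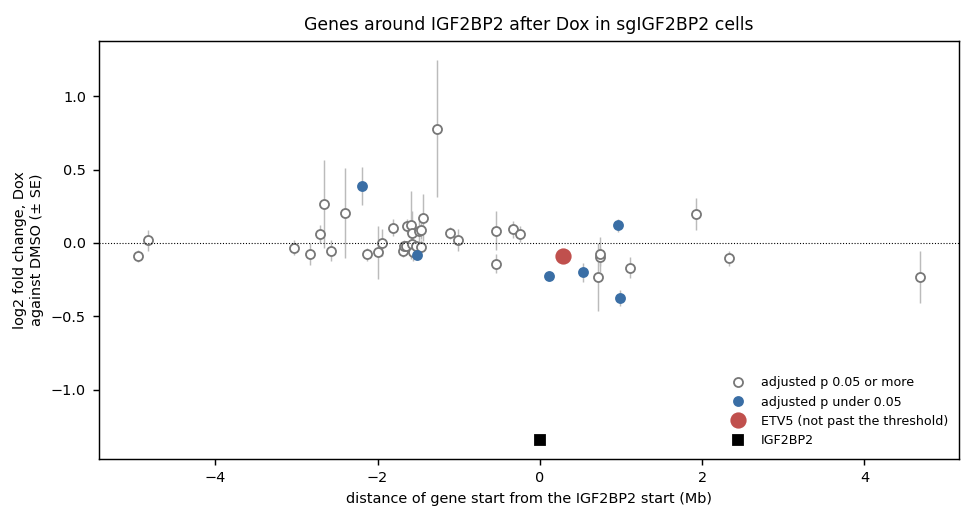
Log2 fold change with Dox against DMSO in the sgIGF2BP2 line (y axis, bars ± 1 SE) of the tested genes within 5 Mb of IGF2BP2, by distance of the gene start (x axis, Mb). Filled circles passed the test. ETV5, at 0.285 Mb and -0.09, lies between TRA2B and DGKG, which both passed.

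PHLDA1 (chr12:76025447-76033932), the most abundant of the 10 per kilobase, fell in 2 of the 3 lines with Dox. It went from 1004, 937, 979.6 and 942 to 852, 769, 825 and 879 CPM in sgAAVS1, and from 949.5, 906, 912 and 937 to 841, 701, 806 and 860.0 CPM in sgIGF2BP2. Neither pair overlapped, and the log2 fold changes were close, -0.22 ± 0.039 (edgeR adjusted p = 2.9e-05) and -0.21 ± 0.039 (edgeR adjusted p = 3.3e-05). In sgIGF2BP3 it was 951, 885, 888 and 945 CPM with DMSO and 898, 909, 904 and 913 CPM with Dox, with a 95% interval of -0.094 to 0.058. The Dox effect in sgIGF2BP3 exceeded that in sgAAVS1 by 0.20 ± 0.055 (edgeR adjusted p = 0.015), a call lost without sgAAVS1 Dox replicate 2, and that in sgIGF2BP2 by 0.19 ± 0.055 (edgeR adjusted p = 0.037). The difference from sgIGF2BP2 was lost in 10 of 23 alternatives, among them without sgIGF2BP2 Dox replicate 2, in which PHLDA1 was lowest. With siControl against DMSO it fell in sgIGF2BP3 (-0.12 ± 0.039, edgeR adjusted p = 0.018), a call lost in 5 of 15 alternatives. With siIGF2BP2 PHLDA1 fell again, from 867, 834, 872 and 889 to 785, 765, 735 and 783 CPM (-0.17 ± 0.039, edgeR adjusted p = 2.2e-04). With siIGF2BP3 the value was 0.065 ± 0.039 (edgeR adjusted p = 0.48), and the siRNA effects differed by 0.24 ± 0.055 (edgeR adjusted p = 7.9e-04).

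The rest of the pathway was followed in lists of 112 other genes, from receptors to outputs, of which 100 were tested. With Dox in sgAAVS1, 10 of them rose and 14 fell, where 7.25% of all genes rose and 8.68% fell. In sgIGF2BP2 20 rose and 9 fell, against 10.0% and 10.4% of all genes. In sgIGF2BP3 5 rose and 2 fell, against 2.64% of all genes in either direction. Of 20 tested immediate early genes, 5 rose and 4 fell in sgAAVS1, 6 rose and 3 fell in sgIGF2BP2, and 2 rose in sgIGF2BP3. Among other negative regulators, DUSP1, an inducible nuclear MAPK phosphatase, moved with Dox in the directions of DUSP6, although DUSP6 did not pass in sgIGF2BP3. DUSP1 was 22.0, 19.8, 21.5 and 22.4 CPM with DMSO and 16.6, 15.8, 14.2 and 16.4 CPM with Dox in sgAAVS1 (-0.44 ± 0.083, edgeR adjusted p = 7.1e-05). It rose with Dox in sgIGF2BP2 (0.35 ± 0.078, edgeR adjusted p = 4.9e-04) and sgIGF2BP3 (0.35 ± 0.078, edgeR adjusted p = 0.0038). ERRFI1, a feedback inhibitor of the EGF receptor, rose in sgIGF2BP2 (0.48 ± 0.086, edgeR adjusted p = 1.9e-05), more than in sgAAVS1 by 0.60 ± 0.13 (edgeR adjusted p = 0.0011), while the difference from sgIGF2BP3 did not pass (edgeR adjusted p = 0.17). Of 12 tested other ERK output genes, 7 fell with Dox in sgAAVS1, and 4 rose and 1 fell in sgIGF2BP2. PLAU, the urokinase gene, went down in sgAAVS1 (-0.38 ± 0.097, edgeR adjusted p = 0.0035) and up in sgIGF2BP2 (0.80 ± 0.083, edgeR adjusted p = 9.0e-12) and sgIGF2BP3 (0.44 ± 0.087, edgeR adjusted p = 7.8e-04). MYC fell in sgAAVS1 (-0.41 ± 0.042, edgeR adjusted p = 1.7e-11) and rose in sgIGF2BP2 (0.19 ± 0.042, edgeR adjusted p = 5.6e-04).

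p53 target genes moved in the same Dox comparisons. Of 19 tested, 13 rose in sgAAVS1, 19 in sgIGF2BP2 and 12 in sgIGF2BP3, with median log2 fold changes of 0.31, 0.61 and 0.23. Of all genes 7.25% rose in sgAAVS1 and 10% in sgIGF2BP2, and 2.64% passed in either direction in sgIGF2BP3. With siControl against DMSO 9 of the 19 rose and 0 fell in sgIGF2BP2, against 10.2% and 8.16% of all genes. In sgIGF2BP3 8 rose and 1 fell with siControl, against 10.9% and 8.54% of all genes. MDM2, the p53 ubiquitin ligase, was 156, 149.9, 141 and 145 CPM in sgAAVS1, 187, 189, 179 and 207 CPM in sgIGF2BP2 and 145, 147, 139.8 and 123 CPM in sgIGF2BP3 with Dox. With DMSO all 12 libraries lay between 106 and 126 CPM. The 3 genes whose levels over the 40 libraries were most like that of SPRY2 were GADD45A, AEN and MDM2, all known p53 targets (Pearson r of 0.73, 0.72 and 0.70). The part of the p53 response in the values of SPRY2, DUSP5 and DUSP6 was not tested.

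With siIGF2BP2 9 of the 100 pathway genes rose and 31 fell, where 18.4% of all genes rose and 18.4% fell. The share past the threshold in either direction was near the 36.8% of all genes. By direction, the share that rose was below that of all genes and the share that fell was above it. Of 20 tested immediate early genes 4 rose and 6 fell, and of 19 receptors and adaptors 1 rose and 4 fell. Of 16 tested cascade genes 1 rose and 8 fell, and of 12 other output genes 1 rose and 7 fell. LAMTOR3, the scaffold also called MP1 that binds MEK and ERK, went from 24.8, 23.8, 22.6 and 22.8 to 15.2, 14.5, 16.4 and 15.1 CPM (-0.62 ± 0.076, edgeR adjusted p = 5.8e-10). CCND1, which encodes cyclin D1, went from 222, 242, 247 and 249 to 136, 135, 143 and 135 CPM (-0.80 ± 0.033, edgeR adjusted p = 2.0e-31). The early-response genes IER3 (-1.17 ± 0.12, edgeR adjusted p = 9.7e-13) and MYC (-0.50 ± 0.042, edgeR adjusted p = 7.3e-16) and the chromatin gene HMGA1 (-0.95 ± 0.036, edgeR adjusted p = 1.2e-33) fell too. Beside these, DUSP6 fell by 13.6%, PHLDA1 by 11.4% and DUSP5 by 24.5%, and DUSP4, SPRY2, SPRY4, SPRED1 and ETV5 did not pass. With siIGF2BP3, 3 pathway genes passed, all higher: VGF (0.40 ± 0.051, edgeR adjusted p = 2.2e-08), TRIB1 (0.31 ± 0.057, edgeR adjusted p = 1.8e-04) and RASA1 (0.32 ± 0.054, edgeR adjusted p = 2.8e-05).

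Knockout and siRNA of IGF2BP2 share no library and can be set side by side. Of the 10 feedback genes 4 passed in both, of which DUSP5, DUSP6 and ETV4 went in opposite directions and PHLDA1 in the same direction. When the Dox effect in sgIGF2BP2 was set against that in sgAAVS1, DUSP5 and DUSP6 passed, and ETV4 and PHLDA1 did not. Of the 100 other pathway genes 14 passed in both, 6 in the same direction and 8 in opposite directions. Of all 11428 genes 1050 passed in both, 682 in the same and 368 in opposite directions. The comparisons differ in more than the route of depletion, since Dox induces a nuclease and the siRNA was transfected, and these cannot be told apart.

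**Figure D4:**
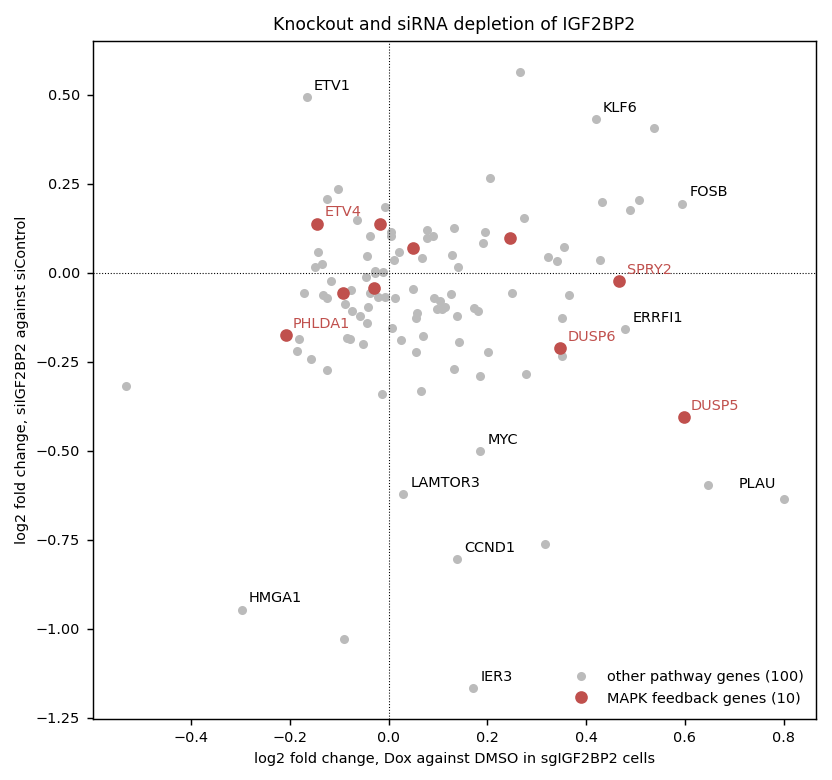
Log2 fold change with Dox against DMSO in the sgIGF2BP2 line (x axis) and with siIGF2BP2 against siControl (y axis), for the 10 feedback genes and the 100 other tested pathway genes. DUSP5 (0.60 and -0.40) and DUSP6 (0.35 and -0.21) lie at the lower right.

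Across the 40 libraries the gene most like DUSP6 was TRIB1, a pseudokinase gene that is also an ERK output (Pearson r = 0.92 of log2 CPM among 9958 genes searched), followed by LAMB3 (0.91) and RNF227 (0.90). For DUSP5 it was PDP1, a mitochondrial phosphatase gene (0.90), for PHLDA1 SEMA7A (0.87), for ETV4 PHF19 (0.86), for SPRED1 TMEM263 (0.80), for ETV5 YWHAQ (0.73), for SPRY4 ABL1 (0.72) and for SPRED2 SS18L1 (0.71). For DUSP4 no gene exceeded TMEM231 (0.50). TRIB1 was 104, 97.7, 98.7 and 105 CPM with DMSO and 99.8, 92.4, 105 and 102 CPM with Dox in sgAAVS1, with a log2 fold change that did not pass (-0.022 ± 0.053, edgeR adjusted p = 0.83). The feedback genes were also set against each other. Among their 45 pairs the highest r was 0.64, for SPRY4 and PHLDA1, the lowest -0.65, for DUSP6 and ETV4, and DUSP5 and DUSP6 had 0.07. A highest r from 45 pairs tends to be lower than one picked from 9958 genes, so the searches cannot be compared in height. When each library was taken as its deviation from its group mean, DUSP5 and PHLDA1 reached 0.71 and DUSP5 and DUSP6 0.30. These correlations describe libraries that share groups, wells and depth.

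**Figure D5:**
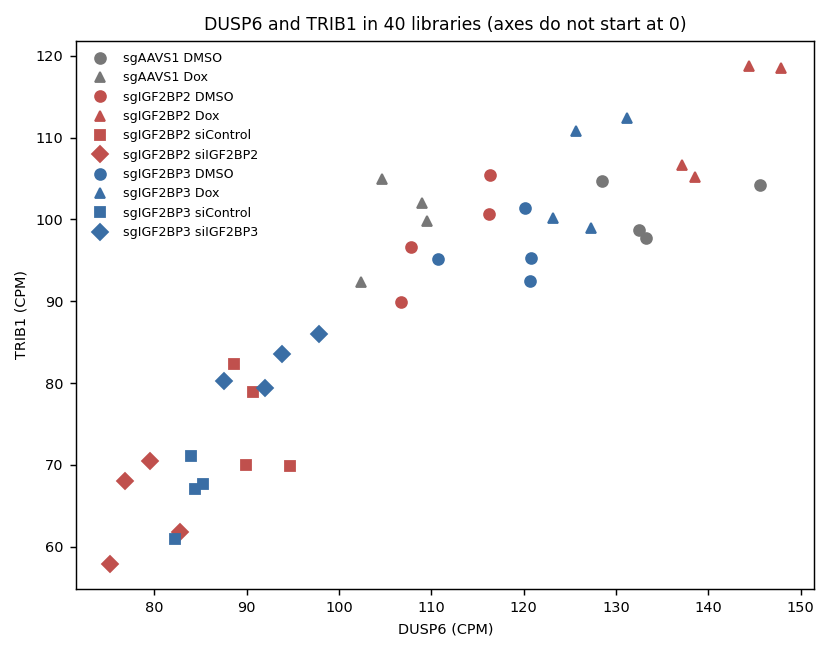
Level of DUSP6 (x axis, CPM) and TRIB1 (y axis, CPM) in the 40 libraries, 1 point each, with symbols for treatment and colours for line. Neither axis starts at 0. The 16 transfected libraries lie at the lower left, and the 4 sgAAVS1 Dox libraries have DUSP6 at 102 to 109.6 CPM with TRIB1 at 92.4 to 105 CPM.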

How the data were processed

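The authors deposited 1 table of read counts per gene for the 40 libraries, and it was used as deposited. Per the submitters' processing notes, reads were demultiplexed with bcl2fastq 2.20.0.422 and aligned with STAR 2.7.5c to hg38. Per the labels' protocols, RNA was alkylated, selected for poly(A) and made into libraries with a directional kit. The tool that counted reads, its annotation and its use of strand are not given in the sources used here. Of the 19962 gene identifiers, 19895 were paired with a symbol and 19847 with a position in GENCODE v29.

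edgeR 4.0.16 (R 4.3.3, limma 3.58.1) was fitted to all 40 libraries, with 1 coefficient per group, TMM scaling and the filterByExpr minimum by group, which kept 11428 genes. Its two-sided quasi-likelihood test gave p-values for 15 contrasts, adjusted by Benjamini-Hochberg over all genes tested, with a threshold of 0.05. Standard errors were taken from the fold change and its F statistic. The script was tested on simulated data with known changes. Correlations used log2 CPM with a prior count of 2. Alternatives were DESeq2 1.42.0, its size factors in edgeR, no filter, the replicate number as a block, the compared groups alone, a 1.2-fold minimum, each library left out, and, chosen after the data were seen, an offset for GC content and length.

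The 10 genes and all lists were chosen with earlier results of these data known. Besides the 10 genes, those named are the up to 2 genes per list with the greatest rise and fall that passed, leaving out genes under a mean log2 CPM of 2, the 3 genes most like each of the 10, and the neighbours of IGF2BP2. Values of such a gene in another comparison, those of MDM2 with Dox and those of DUSP1 and MYC with Dox in sgIGF2BP2 were added after they were seen. Sequences upstream of genes are from RefSeq (GRCh38.p14), and guides are from the labels. A gene of the pathway lists is counted in its list but not reported here by name.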

Additional observations from a re-analysis of the deposited data

Results flagged for a closer look

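In the 100 sets of 4 libraries (10 genes in 10 groups), 3 held a library that lay apart from its partners by Dixon's test, where chance alone gives about 1 set in 20. DUSP4 was 2.81 CPM in sgIGF2BP2 siControl replicate 1, against 2.34 to 2.42 CPM in the other libraries of that group. SPRY4 was 701 CPM in the same library, against 667 to 670.3 CPM in its partners. DUSP6 was 111 CPM in sgIGF2BP3 DMSO replicate 2, against 120.1 to 120.7 CPM in its partners.

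Effects that differed between lines or siRNAs, by the test of the difference itself with edgeR, numbered 16. The Dox effect in sgIGF2BP2 exceeded that in sgAAVS1, on the log2 scale, by 0.80 for DUSP5, 0.69 for DUSP6, 0.47 for SPRY2 and 0.17 for SPRY4. The Dox effect in sgIGF2BP3 exceeded that in sgAAVS1 by 0.36 for DUSP5, 0.44 for DUSP6, 0.18 for SPRY4 and 0.20 for PHLDA1. The Dox effect in sgIGF2BP3 minus that in sgIGF2BP2 was -0.44 for DUSP5, -0.24 for DUSP6, -0.48 for SPRY2 and 0.19 for PHLDA1. The effect of siIGF2BP3 minus that of siIGF2BP2 was 0.50 for DUSP5, 0.36 for DUSP6, -0.16 for ETV4 and 0.24 for PHLDA1. The first 3 sets share their Dox and DMSO libraries, so the same gene under several of them is not counted as separate evidence.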

How the results depend on the processing

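With DESeq2 each of the 15 contrasts had the same number of the 10 feedback genes past the threshold as with edgeR, and over 728 refits of single calls none changed sign and 111 lost the threshold. With a 1.2-fold minimum 0 of the 10 genes passed with Dox in sgAAVS1, with siIGF2BP3 and with siControl in sgIGF2BP2, where 50, 16 and 85 of all 11428 genes passed. With it 0 of the 10 also passed between sgIGF2BP2 or sgIGF2BP3 and sgAAVS1 with DMSO (0 and 1 of all genes). The same held for the Dox effect of sgIGF2BP3 minus sgAAVS1 or minus sgIGF2BP2 (7 and 6 of all genes). With that minimum 1 of the 10 passed with Dox in sgIGF2BP2 (117 of all genes) and with siIGF2BP2 (512). Also 1 of the 10 passed with siControl in sgIGF2BP3 (125 of all genes) and in the difference of the siRNA effects (273). In the Dox effect of sgIGF2BP2 minus sgAAVS1 2 of the 10 passed (25 of all genes). Without the filter on low counts 0 of the 10 genes passed with siIGF2BP3. With the compared groups alone 8 of the 10 passed with siControl in sgIGF2BP3 and 0 between sgIGF2BP3 and sgAAVS1 with DMSO.

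Leaving out each library in turn gave 3 to 5 of the 10 genes with Dox in sgAAVS1, 4 to 5 with Dox in sgIGF2BP2 and 0 with Dox in sgIGF2BP3. It gave 4 to 5 with siIGF2BP2, 0 to 1 with siIGF2BP3, 2 with siControl in sgIGF2BP2 and 2 to 5 with siControl in sgIGF2BP3. It gave 1 between sgIGF2BP2 and sgAAVS1 with DMSO, 0 to 1 between sgIGF2BP3 and sgAAVS1, 0 between sgIGF2BP3 and sgIGF2BP2 with DMSO or siControl, 3 to 4 for the Dox effect of sgIGF2BP2 minus sgAAVS1, 2 to 4 for sgIGF2BP3 minus sgAAVS1, 3 to 4 for sgIGF2BP3 minus sgIGF2BP2 and 3 to 4 for the siRNA effects. The 2 with siControl in sgIGF2BP3 came without DMSO replicate 4, and 3 passed without DMSO replicate 1, DMSO replicate 3 or siControl replicate 3. The 2 for sgIGF2BP3 minus sgAAVS1 came without sgAAVS1 Dox replicate 2. DUSP6 lost its call with siIGF2BP3 without any 1 of the siControl libraries or of siIGF2BP3 replicates 1, 2 and 4. It lost that between sgIGF2BP3 and sgAAVS1 without sgAAVS1 replicate 1, 2 or 3 or sgIGF2BP3 replicate 1, 2 or 4. Without sgIGF2BP2 Dox replicate 2, the library that stood apart, 5 genes still passed with Dox in sgIGF2BP2.

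Strong pairing of the libraries by replicate number was not seen. In 0 of 11 pairs of groups were all 4 correlations of same-numbered deviations over 0.1, and the mean r ranged from -0.03 to 0.06. The median of these means was 0.013, against -0.0044 for libraries of other numbers. Of 40 libraries 19 were closest to their own number, with 4 numbers to choose from, so a weak pairing remains possible. With the replicate block 3 of the 10 genes passed with siControl in sgIGF2BP2 in place of 2, and the other 14 counts were equal. Over all genes the replicate block gave 6 in place of 2 between sgIGF2BP3 and sgAAVS1 with DMSO, and 5 in place of 2 between sgIGF2BP3 and sgIGF2BP2 with siControl.

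The counts over all genes moved by over 1.5 times under some settings. With a 1.2-fold minimum 50 passed with Dox in sgAAVS1, 117 in sgIGF2BP2 and 8 in sgIGF2BP3, 512 with siIGF2BP2 and 16 with siIGF2BP3. With the GC and length offset 442 passed with siIGF2BP3 in place of 267, 413 in place of 889 in the Dox effect of sgIGF2BP3 minus sgAAVS1, and 604 in place of 333 in that of sgIGF2BP3 minus sgIGF2BP2. With the compared groups alone 477 in place of 302 passed with Dox in sgIGF2BP3. Between sgIGF2BP3 and sgAAVS1 with DMSO 35 passed without the filter, 5 with DESeq2 and 74 without sgAAVS1 DMSO replicate 4, in place of 2. The causes were not tested. At 18 to 69 counts per library, DUSP4 is limited by depth.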

Other observations

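Values of some early-response genes were not given above. KLF6, a zinc-finger factor, rose both with Dox in sgIGF2BP2 (0.42 ± 0.072, edgeR adjusted p = 6.5e-06) and with siIGF2BP2 (0.43 ± 0.066, edgeR adjusted p = 1.8e-07), and FOSB, an AP-1 subunit, rose with Dox in sgAAVS1 (0.43 ± 0.061, edgeR adjusted p = 2.1e-07) and in sgIGF2BP2 (0.59 ± 0.059, edgeR adjusted p = 1.6e-12). ETV1, the third member of the PEA3 group beside ETV4 and ETV5, rose with siIGF2BP2 (0.49 ± 0.098, edgeR adjusted p = 4.0e-05). HBEGF, a ligand of the EGF receptor, rose with Dox in sgIGF2BP2 (0.43 ± 0.10, edgeR adjusted p = 0.0013).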
